A study of Mus musculus with 6 samples.

Results

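The PPAR-driven program of fat use was followed through 8 genes, Pdk4, Cpt1a, Angptl4, Plin2, Acadm, Ehhadh, Fabp1 and Ppara, in mouse colonic epithelium with and without the microRNA miR-31. They were chosen as named genes, and every non-control probe whose accession maps to one of these 8 mouse RefSeq symbols was taken. This gave 10 of the 56605 probes of the array, with 2 probes each for Plin2 and Ppara and 1 for each other gene. All 10 were well above background on all 6 arrays. The controls were 3 wild-type male mice and the other group 3 male miR-31 knockout mice, and the RNA of each mouse was hybridised to 1 one-colour Agilent array. The colonic epithelium was separated by flow into TRIzol, and the RNA was amplified before labelling with Cy3. The gate, the strain, the age, the feeding state and the way the knockout was made are not given in the sources used here.

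PPARα, the protein of Ppara, is a nuclear receptor that binds fatty acids. Paired with a retinoid X receptor it binds a direct repeat of the half-site AGGTCA with 1 base between the copies (DR1) and raises transcription of genes that carry, store and burn fat. Pdk4, Angptl4, Cpt1a, Plin2, Acadm, Ehhadh and Fabp1 are all known targets, several of them shared with PPARδ and PPARγ. Absorptive cells of the colon burn butyrate by mitochondrial β-oxidation and make ketone bodies from it. None of the 8 genes is itself an enzyme of ketone body synthesis, so that step is described from the other genes of the pathway.

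The mature strands of the deleted microRNA are shown because its absence is the only genetic difference the labels give. Both come from the RefSeq table of GRCm38.p6, 5′ to 3′, with the seed (bases 2 to 8) in capitals. The first lies at chr4:88910614-88910635 and the second at chr4:88910577-88910599, both on the minus strand.
mmu-miR-31-5p: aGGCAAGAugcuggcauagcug
mmu-miR-31-3p: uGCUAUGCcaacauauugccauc
Of the 8 genes, Plin2 alone shares chromosome 4 with the microRNA gene, with 40 protein-coding genes between them in the RefSeq order. No probe of the array was matched to the microRNA gene, so its loss could not be checked from these values.

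RefSeq promoter windows, from 250 bases before to 50 after the annotated start, were found for 7 of the 8 genes, all but Angptl4. They were searched on both strands for AGGTCANAGGTCA, the DR1 element that the receptor pair is known to bind. Of all 32851 windows of the same length, 0.0396% held an exact match, 0.554% a match with at most 1 mismatch and 3.86% one with at most 2. Fabp1 held 1 element with 1 mismatch, and Plin2 held 1 with 2 mismatches. The windows of Pdk4, Cpt1a, Acadm, Ehhadh and Ppara held none at up to 2 mismatches, which says only that these letters are not in these windows. The half-site alone was in 16.3% of windows, in those of Acadm, Cpt1a, Plin2 and Fabp1 among the 7; half-sites inside a DR1 match are counted. The Fabp1 element lies at chr6:71199812-71199824 and the Plin2 element at chr4:86670272-86670284, in GRCm38.p6. The stretches around them, at chr6:71199782-71199854 (plus strand) and chr4:86670242-86670309 (minus strand), are given 5′ to 3′ on the strand of the gene, with the 13-base element in capitals.
Fabp1 promoter: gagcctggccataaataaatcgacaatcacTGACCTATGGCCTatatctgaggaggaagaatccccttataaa
Plin2 promoter: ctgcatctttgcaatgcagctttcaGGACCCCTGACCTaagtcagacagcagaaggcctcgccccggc
In both, the element reads on the strand opposite to the gene. A match is a description of the sequence, and no binding was measured here.

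Between 66.6% and 75.6% of probes per array were well above background, and no spot was saturated. Levels below are the processed signal in percent of the array's own 75th percentile, and changes are knockout minus wild-type on the log2 scale with the standard error (SE) from limma. Of 27916 features tested, 58 passed an adjusted p of 0.05 (0.208%), and over all features the median log2 change was -0.06. Wild-type replicate 3 stood apart from its group: along the leading principal component (38.8% of variance), the wild-type arrays lay at -41.1, -39.2 and -8.38 and the knockout arrays at 32.1, 34.4 and 22.1. The titles also carry an animal number. The numbers of replicates 1 and 2 of both groups begin with the same 3 digits, and those of replicate 3 begin otherwise, and differently in each group, so the labels do not join those 2 mice; nor do they say what the number stands for. All wild-type arrays lay in one row of the slide and all knockout arrays in the other, so slide row and genotype cannot be told apart.

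None of the 8 genes passed the test. Pdk4 and Angptl4 had the largest values, with geometric mean signals 3.4-fold and 1.88-fold higher in the knockout, and Ppara and Fabp1 were 1.25-fold and 1.35-fold higher. Cpt1a, Acadm, Ehhadh and Plin2 differed by at most 1.17-fold between the group means. Spots marked in the scanner files as non-uniform, as outliers or by hand were left out of the test. After that, 3 genes, Cpt1a, Acadm and Ehhadh, had too few arrays left. They were measured with marked spots kept, in a fit over 32275 features. Of the 5 genes tested without marked spots, 0 were called by limma, and 2 (Pdk4 and Angptl4) were higher at an unadjusted p under 0.05, against 3.18% of all features higher and 7.55% lower at that threshold. With marked spots kept, 0 of 8 were called, against 0.17% of features, and the same 2 of 8 were higher at an unadjusted p under 0.05, against 3.24%.

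**Figure D1:**
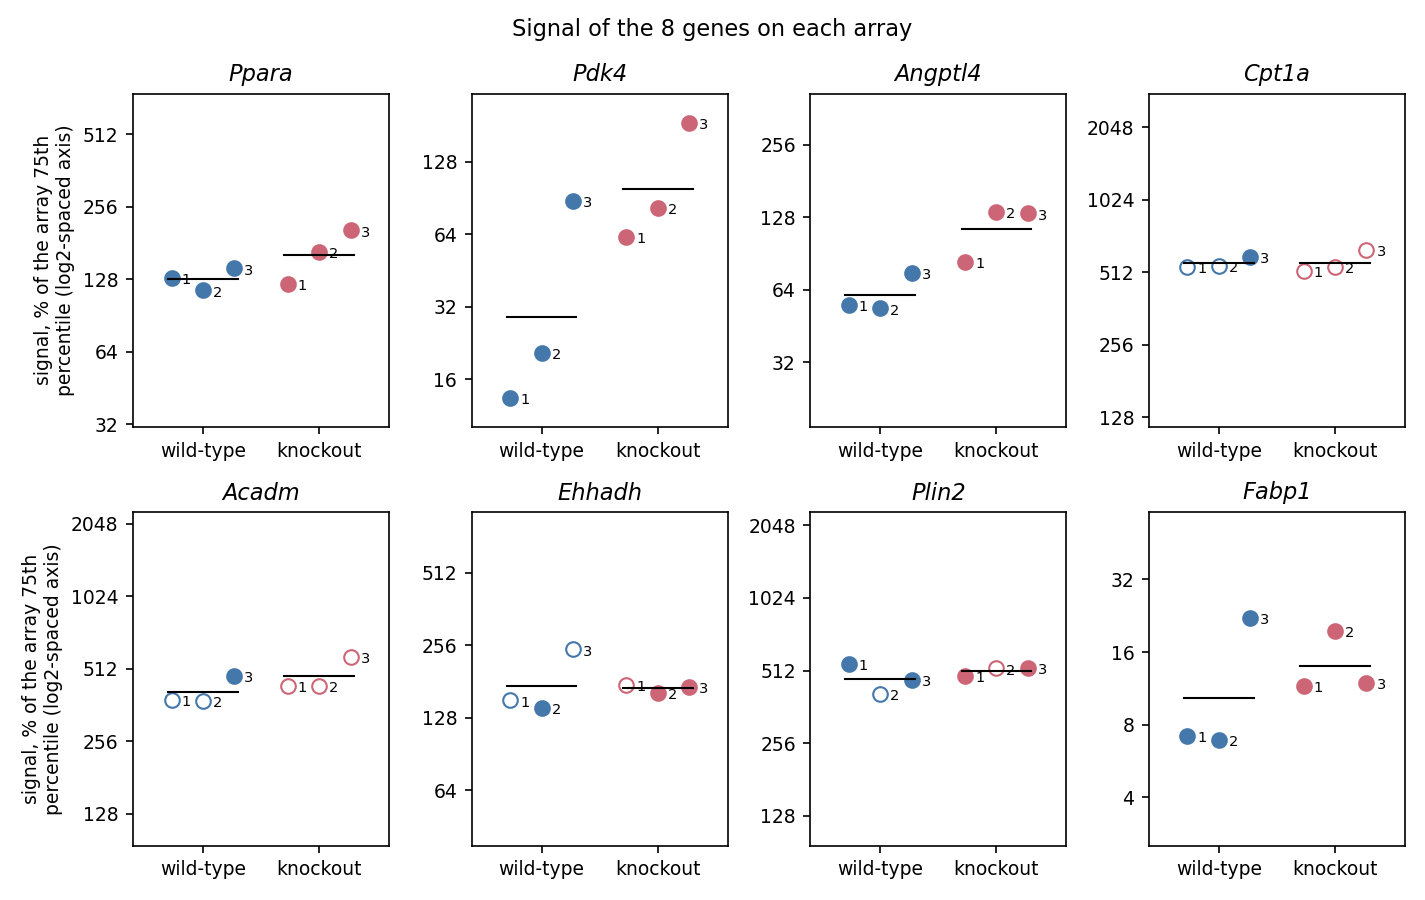
Signal of each gene on each of the 6 arrays, in percent of the array's 75th percentile, on a log2-spaced axis that spans the same fold range in every panel; points carry the replicate number, open points are marked spots, and lines are geometric means of each group. Angptl4 is the one gene whose 3 knockout arrays all lie above the 3 wild-type arrays, while Pdk4 spreads from 13.4% to 88.4% among the wild-type arrays alone.

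The receptor gene Ppara was read by 2 probes. The brighter one gave, in replicate order here and below, 130, 115 and 142% of the 75th percentile in the wild-type and 122, 166 and 204% in the knockout. Knockout replicates 2 and 3 were above every wild-type array and knockout replicate 1 was not, so the groups overlapped. The log2 change was 0.32 ± 0.20 (SE; 95% interval -0.16 to 0.81), with an adjusted p of 0.619. Leaving out single arrays moved it between 0.15, when knockout replicate 3 was dropped, and 0.52, when knockout replicate 1 was. The second Ppara probe gave 101, 89.0 and 83.1% in the wild-type and 86.3, 116 and 133% in the knockout, a log2 change of 0.28 ± 0.18 with an adjusted p of 0.648. Both probes thus placed knockout replicates 2 and 3 highest.

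Pdk4 encodes a kinase that switches off the pyruvate dehydrogenase complex and so spares glucose when fat is burned. Its signal was 13.4, 20.6 and 88.4% of the 75th percentile in the wild-type and 62.3, 82.3 and 186% in the knockout. Wild-type replicates 1 and 2 were the lowest arrays, knockout replicate 3 the highest, and wild-type replicate 3 lay above 2 of the 3 knockout arrays. On the log2 scale the mean was -1.79 (SD 1.43, n = 3) in the wild-type and -0.02 (SD 0.82, n = 3) in the knockout. The change of 1.76 ± 0.73 had a 95% interval of 0.04 to 3.49 and an adjusted p of 0.455. Across all 6 arrays the signal covered a 13.9-fold range, the widest of the 8 genes.

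Pdk4 was also compared by animal number. Among the mice whose numbers share their first digits, the log2 difference was 2.11 (n = 2 and 2), and between the 1 wild-type and the 1 knockout mouse with other numbers it was 1.07. In turn, the mouse with another number was higher than the mean of its 2 group mates by 2.41 in the wild-type and by 1.38 in the knockout. With a block added to the same limma fit that sets the mice with shared first digits against the other 2, which the labels do not call one batch, the SE was 0.28 in place of 0.73 and the adjusted p was 0.122. Without wild-type replicate 3, the array that stood apart, the change was 2.57 ± 0.49 with an adjusted p of 0.144; without wild-type replicate 1 it was 1.21. The sign held under every left-out array and the call threshold was passed under none. What the animal number stands for was not tested.

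Angptl4 encodes a secreted protein that inhibits lipoprotein lipase and is made in the gut in response to fatty acids. Its signal was 55.6, 53.6 and 75.5% of the 75th percentile in the wild-type and 83.6, 134 and 133% in the knockout. All 3 knockout arrays lay above all 3 wild-type arrays, with a narrow gap between wild-type replicate 3 and knockout replicate 1; 5.56% of all features were higher in the knockout without overlap. On the log2 scale the means were -0.72 (SD 0.27, n = 3) and 0.19 (SD 0.39, n = 3). The change of 0.91 ± 0.23 had a 95% interval of 0.36 to 1.46 and an adjusted p of 0.267. It was 0.96 among the mice with shared first digits and 0.82 between the other 2 mice. Leaving out single arrays moved it between 0.79 and 1.14.

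The enzymes of fatty acid breakdown came next. Cpt1a encodes the carnitine palmitoyltransferase that admits long-chain fatty acids to the mitochondrion. Its signal was bright and even, at 538, 546 and 593% of the 75th percentile in the wild-type and 521, 538 and 634% in the knockout, a 1.22-fold range over all arrays. The log2 change was 0.01 ± 0.13 (95% interval -0.30 to 0.32; adjusted p = 0.989), with 5 of the 6 spots marked. That interval leaves out a change of the size measured for Pdk4 or Angptl4, as far as marked spots can be relied on.

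Acadm, the mitochondrial medium-chain acyl-CoA dehydrogenase, gave 379, 377 and 478% in the wild-type and 433, 435 and 573% in the knockout, with 5 of 6 spots marked. Replicate 3 was the highest array in each group, and wild-type replicate 3 lay above 2 of the 3 knockout arrays. The log2 change was 0.22 ± 0.17 (95% interval -0.18 to 0.62; adjusted p = 0.699). It was 0.09 without knockout replicate 3 and 0.33 without wild-type replicate 3. The change was 0.20 among the mice with shared first digits and 0.26 between the others. Ehhadh, the bifunctional enzyme of peroxisomal β-oxidation, gave 151, 140 and 246% in the wild-type and 175, 162 and 172% in the knockout, with 3 of 6 spots marked. Wild-type replicate 3 alone was high, the other 5 arrays lying between 140% and 175%. The log2 change of Ehhadh was -0.03 ± 0.22 (95% interval -0.55 to 0.49; adjusted p = 0.977), and without wild-type replicate 3 it was 0.22.

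Plin2 encodes a coat protein of lipid droplets. The brighter of its 2 probes gave 546, 410 and 467% of the 75th percentile in the wild-type and 487, 523 and 527% in the knockout, with replicate 2 of each group marked. The wild-type arrays held both the highest and the lowest value. Without the marked spots (n = 2 and 2) the log2 change was 0.01 ± 0.17 (95% interval -0.43 to 0.44; adjusted p = 0.994), and with them 0.12 ± 0.14 (adjusted p = 0.818). The dimmer Plin2 probe, marked on 5 of 6 arrays, gave 77.4, 48.9 and 90.2% against 114, 58.1 and 63.0%, again with overlapping groups.

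Fabp1, the liver-type fatty acid binding protein, is abundant in the absorptive cells of the small intestine and lower in the colon. Its signal was 7.20, 6.93 and 22.1% of the 75th percentile in the wild-type and 11.6, 19.5 and 12.0% in the knockout. Wild-type replicates 1 and 2 were the lowest arrays and wild-type replicate 3 the highest. The log2 change was 0.43 ± 0.47 (95% interval -0.67 to 1.54; adjusted p = 0.79). The split by animal number gave opposite signs, 1.09 among the mice with shared first digits and -0.89 between the other 2. Without wild-type replicate 3 the change was 0.98 ± 0.25 with an adjusted p of 0.189, whereas dropping wild-type replicate 1 gave 0.17, wild-type replicate 2 gave 0.14 and knockout replicate 2 gave 0.19. The summed linear level of 9 measured small intestine markers, in units of the 75th percentile, was 3.31 to 3.63 in the wild-type and 3.37 to 4.83 in the knockout. A few bright genes made up most of it. Sis had a log2 level of 0.41 on knockout replicate 3 and of -2.41 to -1.36 on all other arrays. Slc5a1, marked on 5 arrays, had mean log2 levels of 0.86 in the wild-type and 0.78 in the knockout, and Alpi -0.19 and 0.35. Of the 11 markers listed 8 were well above background on all arrays, and Lct, the lactase gene, on none; of their part in the Fabp1 values, nothing was tested.

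**Figure D2:**
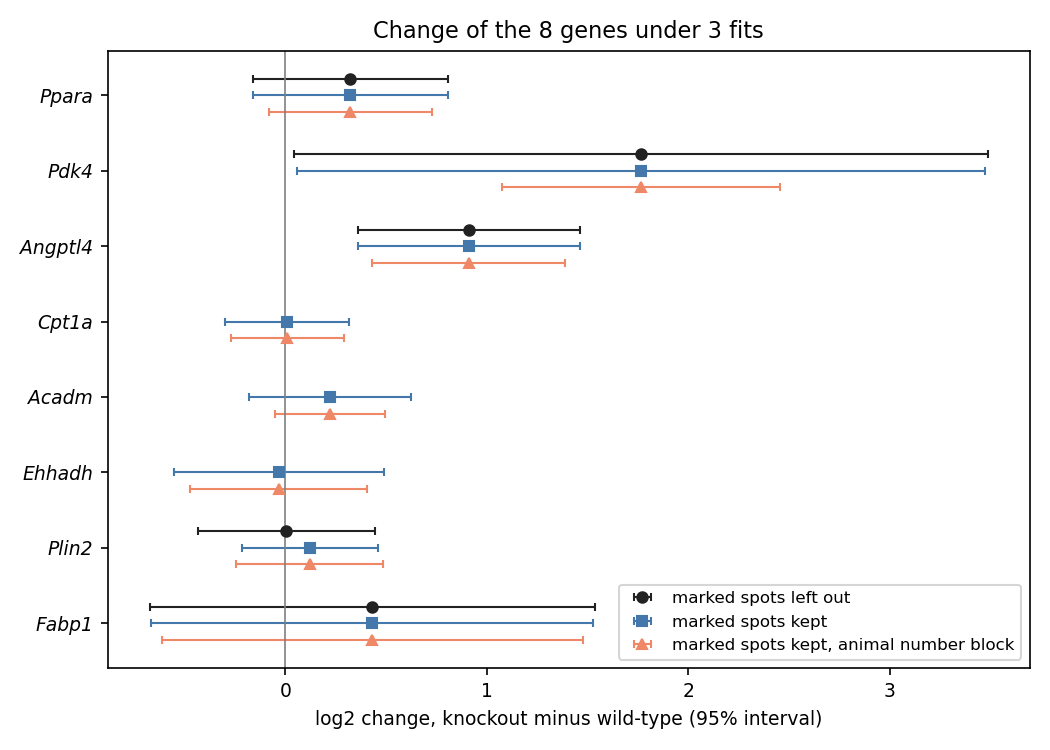
Log2 change of each gene, knockout minus wild-type, with its 95% interval, in the fit without marked spots, the fit with them, and the latter with the animal number split as a block. The block narrows the Pdk4 interval from 0.06 to 3.47 down to 1.07 to 2.46 and leaves the other 7 intervals nearer to their first width; Cpt1a, Acadm and Ehhadh have no value without marked spots.

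Across the 8 genes, wild-type replicate 2 was the lowest array for 6 and knockout replicate 3 the highest for 4. How often each was so over all features was not counted, so these numbers have no background. For Pdk4, Cpt1a, Acadm and the brighter Ppara probe, replicate 3 was the highest array in both groups, 4 of 8 genes against 9.93% of all features; this pattern was noticed after the values were seen, and genes that share arrays are not independent. On the second Ppara probe, wild-type replicate 3 was instead the lowest of the 6 arrays. Replicate 3 also had the smallest share of marked spots in each group, 4.95% (wild-type) and 7.44% (knockout), against 12.8% to 17.3% on replicates 1 and 2. Whether this bears on the pattern was not tested. Over the 6 arrays, Pdk4 varied with Acadm (Pearson's r of 0.93) and with Angptl4 (0.87), and Angptl4 with Ppara (0.86), while Plin2 and Ehhadh gave 0.01. These are descriptions over 6 arrays that share the same 6 mice. Of the 5 genes tested without marked spots, all 5 changes were above 0, with a median of 0.43, where 38.5% of all features were above 0. With marked spots kept, 7 of 8 were above 0, with a median of 0.27, where 39.9% of all features were above 0.

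**Figure D3:**
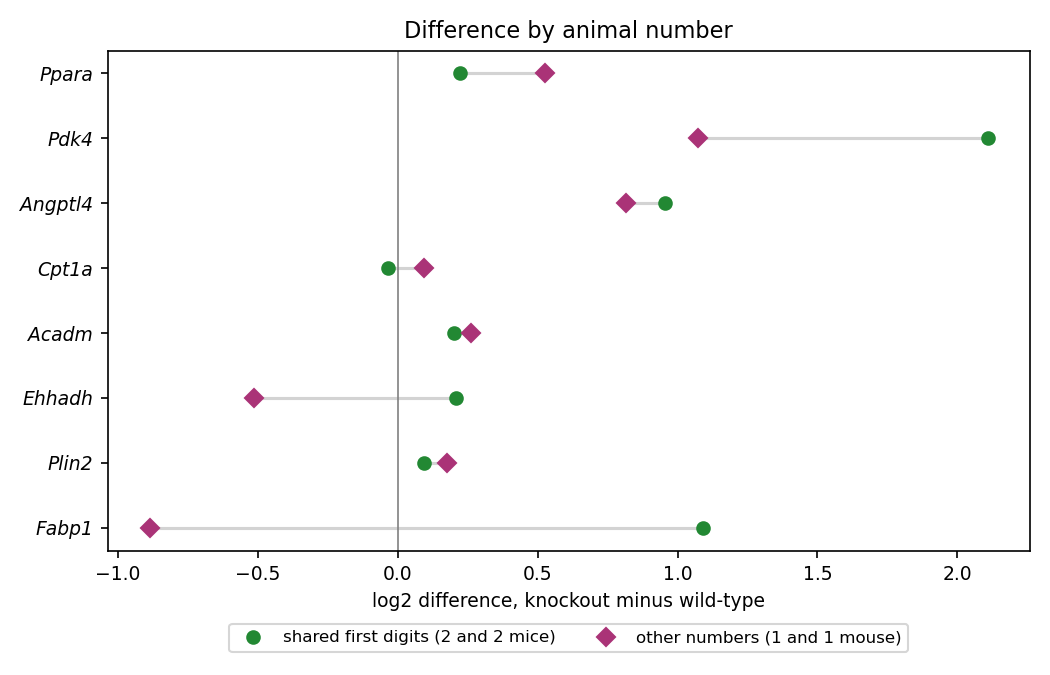
Log2 difference, knockout minus wild-type, within the mice whose numbers share their first digits (2 and 2) and between the 1 wild-type and 1 knockout mouse with other numbers, with marked spots kept. Pdk4, Angptl4, Ppara, Acadm and Plin2 are above 0 in both, whereas Fabp1 (1.09 and -0.89), Ehhadh (0.21 and -0.51) and Cpt1a (-0.03 and 0.10) change sign.

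The rest of the pathway was read from lists of genes around the 8, and no gene in any of them passed the adjusted threshold. Among the other PPARs, their partners and coregulators, 10 of 13 were tested, 5 above and 5 below 0 (38.5% of all features above). Of these 10, 0 had an unadjusted p under 0.05, against 3.18% of all features higher and 7.55% lower. Pparg (-0.16 ± 0.14, adjusted p = 0.733) and Ppard (-0.15 ± 0.18, adjusted p = 0.815), the sister receptors of Ppara, were slightly below 0. Rxrb, a retinoid X receptor, was at 0.12 ± 0.11. Its relative Rxrg was not well above background on any array.

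Genes of lipid uptake and binding had 9 of 12 tested members above 0 (38.5% of all features), with 2 higher and 0 lower at an unadjusted p under 0.05 (3.18% and 7.55%). With marked spots kept, 7 of 12 were above 0 and the median was 0.06 in place of 0.11. Fabp5, a fatty acid binding protein, gave log2 levels of -0.84, -0.72 and -0.86 in the wild-type and -0.20, -0.12 and -0.54 in the knockout. Its groups did not overlap (5.56% of all features were higher without overlap), and the change was 0.52 ± 0.15 with an adjusted p of 0.304. Lpl, the lipase that Angptl4 protein inhibits, was at 0.85 ± 0.30 (adjusted p = 0.392). Slc27a4 (0.19 ± 0.12) and Slc27a2 (0.39 ± 0.27), fatty acid transporters, were above 0, and Cd36, a fatty acid uptake receptor, was not well above background on any array.

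Of the lipid droplet genes, 14 of 15 were tested, 8 above and 6 below 0 (38.5% of all features above). At an unadjusted p under 0.05, 2 were higher and 0 lower (3.18% and 7.55% of all features). Cidec, which encodes a protein that fuses droplets, had log2 levels of -1.54, -1.70 and -1.15 in the wild-type and -0.94, -0.48 and -0.01 in the knockout. These did not overlap (5.56% of all features were higher without overlap), and the change of 0.98 ± 0.26 had an adjusted p of 0.28. Its relative Cidea was at 0.32 ± 0.12 (adjusted p = 0.415), Dgat2, an enzyme of triglyceride synthesis, at 0.31 ± 0.14, and G0s2, an inhibitor of lipolysis, at -0.28 ± 0.16.

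The mitochondrial β-oxidation genes were split, with 8 above and 7 below 0 of 15 tested of 20, and a median of 0.03. Cpt1c, a Cpt1a relative known mainly from brain, was the 1 gene at an unadjusted p under 0.05, at -0.44 ± 0.12 (adjusted p = 0.312). Of all features, 7.55% were lower at that threshold. The carnitine transporter Slc22a5 was at 0.31 ± 0.16, the short-chain dehydrogenase Acads at 0.18 ± 0.14 and the thiolase Acaa2 at 0.14 ± 0.13. With marked spots kept, all 20 genes were tested, 12 above and 8 below 0.

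Of the peroxisomal and omega oxidation genes, 12 of 17 were tested, 7 above and 5 below 0 (38.5% of all features above). At an unadjusted p under 0.05, 2 were higher and 1 lower (3.18% and 7.55% of all features). The thiolase Acaa1b was at 0.46 ± 0.15 (adjusted p = 0.401, n = 2 and 2). Cyp4a14 and Cyp4a31, fatty acid hydroxylases of one gene family whose probes may share sequence, were at -0.44 ± 0.16 (adjusted p = 0.405) and 0.28 ± 0.13.

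For ketone bodies, 5 of 7 genes were tested, 4 of them above 0 (38.5% of all features). Slc16a7, a monocarboxylate transporter, was at 0.71 ± 0.23 (adjusted p = 0.366), Bdh1, which interconverts the ketone bodies, at 0.10 ± 0.14, and Oxct1, the enzyme of ketone use, at -0.15 ± 0.10.

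The partners of Pdk4 in control of pyruvate dehydrogenase gave 3 above and 4 below 0 of 7 tested of 10 (38.5% of all features above). Of these 7, 0 had an unadjusted p under 0.05, against 3.18% of all features higher and 7.55% lower. Pdk1, another kinase of the complex, was at -0.19 ± 0.20, its subunits Dlat and Pdhb at -0.23 ± 0.17 and 0.10 ± 0.16, and the phosphatase Pdp2 at 0.09 ± 0.15. With marked spots kept, 9 of 10 were below 0, as were 19392 of 32275 features. Some genes were then read by another, brighter probe, such as Dlat (marked on 4 arrays) and Mpc1 (marked on 5). In this way Mpc1 went from -2e-04 ± 0.12 to -0.42 ± 0.16. Of the Angptl4 relatives, Angptl6 was at 0.16 ± 0.14, Angptl1 at -0.18 ± 0.21 and Angptl8 at -0.08 ± 0.14, and Angptl2 and Angptl7 were not well above background on any array. The fatty acid synthesis genes had 1 of 5 tested above 0, Acacb, whose product makes the malonyl-CoA that inhibits Cpt1, at 0.51 ± 0.22 (adjusted p = 0.468). With marked spots kept, 5 of 10 were above 0. Fasn, Acaca and Srebf1 were at -0.15 ± 0.16, -0.10 ± 0.13 and -0.03 ± 0.12.

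Pdk4 and Angptl4 are also induced by glucocorticoids, so genes of that response were read beside them. Of 10 listed, 7 were tested, 2 above and 5 below 0 (38.5% of all features above). Of these 7, 1 was higher at an unadjusted p under 0.05, against 3.18% of all features. That gene was Tsc22d3, at 0.34 ± 0.14 with an adjusted p of 0.442. Dusp1, Per1 and Zbtb16 were at -0.33 ± 0.21, -0.17 ± 0.20 and -0.18 ± 0.24. The fit with marked spots kept tested 9 of the 10, 4 above and 5 below 0, where 39.9% of all features were above 0.

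**Figure D4:**
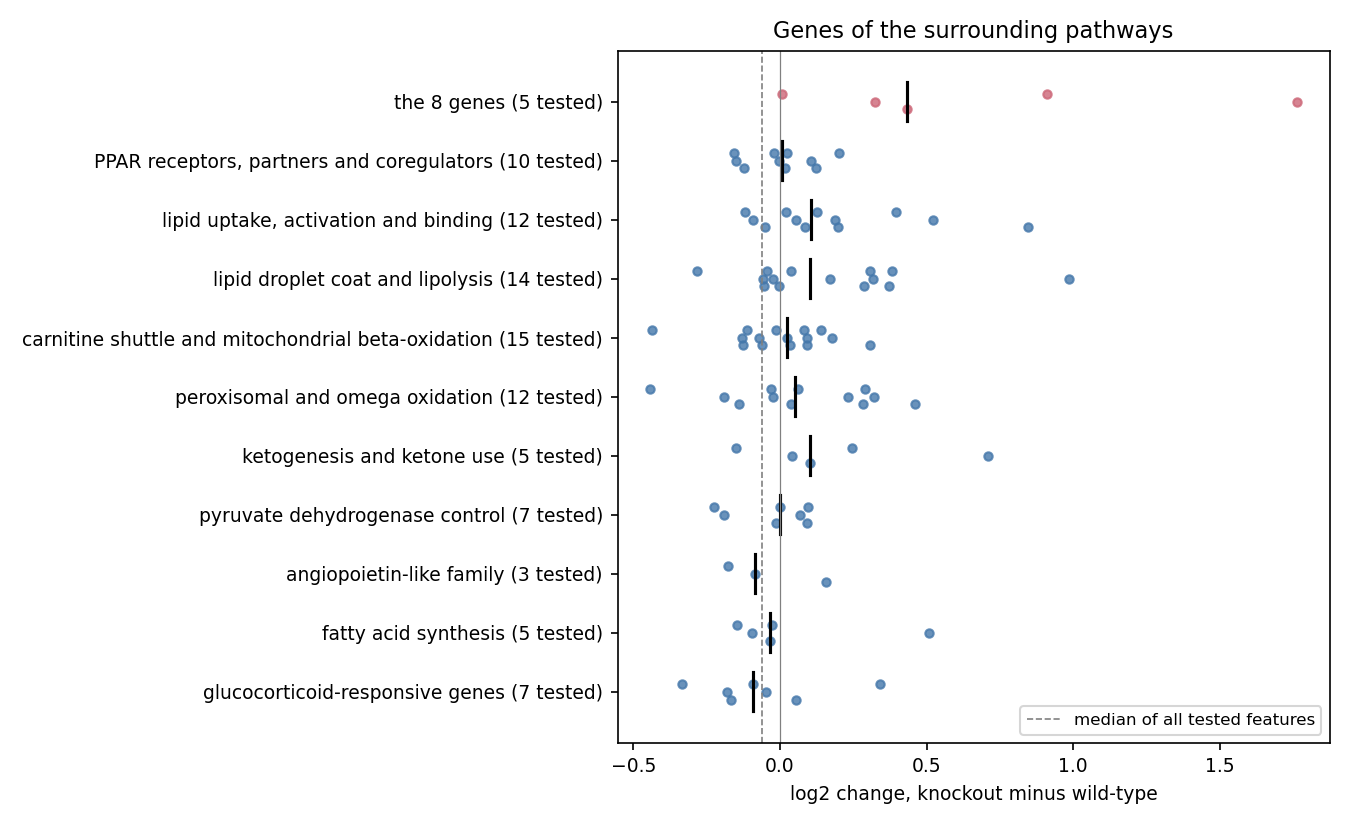
Log2 change, knockout minus wild-type, of each tested gene in the lists around the 8 genes; each point is a gene, black bars are list medians, and the dashed line is the median of all tested features, -0.06. List medians other than that of the 8 genes lie between -0.09 and 0.11, and Cidec, Lpl and Slc16a7 are the points farthest to the right in their lists.

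The genes most like Pdk4 and Angptl4 over the 6 arrays were sought among 1101 tested features with an SD of at least 0.5. These had a RefSeq gene symbol and an unmarked value on all 6 arrays, and clone, locus, Riken and Gm names were left out. For Pdk4 they were Kif27 (Pearson's r of 0.99), a kinesin gene, Drd4 (0.98), a dopamine receptor gene, and Nptx1 (0.98), a pentraxin gene. Drd4 was not well above background on wild-type replicates 1 and 2 and knockout replicate 1, nor Nptx1 on wild-type replicates 1 and 2, so their likeness rests partly on background values and no change is given. The change of Kif27 was 0.75 ± 0.27, with an adjusted p of 0.391. For Angptl4 they were Tbc1d9 (0.98), Lpar4 (0.98), a lysophosphatidic acid receptor gene, and Bcat2 (0.98), the mitochondrial branched-chain aminotransferase. Lpar4 was not well above background on wild-type replicate 1. The changes of Tbc1d9 and Bcat2, measured on all arrays, were 0.80 ± 0.26 and 1.12 ± 0.23, with adjusted p-values of 0.366 and 0.188. With 6 arrays and this many candidates, high values of r are given as a description only.

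All 14 colon epithelium markers were well above background on all arrays, with a summed linear level, in units of the 75th percentile, of 157 to 182 in the wild-type and 150 to 171 in the knockout. The other cell types' lists were read because RNA of other cells could carry some of these genes, and in such bulk samples fewer cells of a type and less RNA per cell cannot be told apart. Adipocytes express Angptl4, Cidec and Lpl strongly, and the sum over 7 measured adipocyte markers, a list that holds Cidec and Lpl, was 1.83 to 2.48 in the wild-type and 2.54 to 4.15 in the knockout, without overlap. Cidec and Lpl alone gave 1.20 to 1.76 and 1.93 to 3.45 of it, and the other 5 markers 0.632 to 0.721 and 0.617 to 0.703. The adipocyte hormone gene Adipoq had log2 levels of -5.88, -5.47 and -6.11 in the wild-type and -5.48, -6.44 and -6.55 in the knockout, a change of -0.34 ± 0.31. Lep was at -0.11 ± 0.13 and Retn at -0.15 ± 0.12, whereas Lipe was at 0.17 ± 0.14 and Plin4 at 0.37 ± 0.23. Plin4 was well above background on 3 of 6 arrays, Plin1 and Fabp4 on 1 of 6 each, and Cfd on none. Leukocyte markers summed to 19.2 to 22.7 and 21.3 to 23.0, and stromal markers to 12.8 to 14.6 and 9.85 to 15.7. Hepatocyte and kidney markers summed to 2.26 to 3.36 and 1.78 to 2.52. Each of these sums was mostly 1 bright gene. Their mean log2 levels were 4.17 and 4.20 (Itgam), 3.63 and 3.55 (Acta2) and 1.33 and 0.79 (Ttr). Those Acta2 and Ttr probes were marked on 6 and 5 arrays. The probes tested without marked spots read -5.19 and -5.22 for Acta2 and -2.15 and -2.82 for Ttr. Of 5 endothelial markers 4 (Cdh5, Kdr, Tek and Emcn) were not well above background on any array. The part of these cells in the values of the 8 genes was not tested.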

How the data were processed

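One-colour Agilent arrays were read for 3 wild-type and 3 knockout mice. Per the file headers, the deposited intensity of each spot, background-subtracted and detrended, came from Agilent Feature Extraction 11.5.1.1; version 10.7 is named in the submitters' processing notes. A deposited series table held the same linear intensity (99.7% of values differed from the scanner's by at most 0.01 on the log2 scale), with column medians of 231, 234 and 247 (wild-type) and 259, 228 and 241 (knockout), so its scale and direction are known and no centring was found.

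From these, log2 intensity minus the array's 75th percentile (3005 to 3539) was computed over 59305 non-control spots. Marked spots (4.95% to 17.3% per array) were left out, and spots of a probe were averaged. A probe was tested when well above background on at least 3 arrays with at least 2 unmarked arrays per group, and a gene was its brightest probe. The 2 groups were fitted in limma 3.58.1 under R 4.3.3 (two-sided, lmFit then eBayes), with p-values adjusted by Benjamini-Hochberg over 27916 features; the script was checked on simulated data. The number of arrays limits the precision, and an exact permutation test of 3 against 3 cannot go below p = 0.1. Names came from RefSeq (GRCm38.p6; 33767 of 56605 probes matched); the array design names mm9. Alternatives changed the background correction, scaling, filter, marks, probe choice, blocks, variance model and arrays.

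The 8 genes and all lists were chosen with earlier results of these data known, so no list supports a direction. Named genes are the 8, up to 4 genes per pathway list with the smallest unadjusted p, apart from 3 that are not reported here, 3 nearest patterns for Pdk4 and Angptl4, and marker genes of other cell types; genes at a special position in a list, such as those not well above background, were named after their values were seen.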

Additional observations from a re-analysis of the deposited data

How the results depend on the processing

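No gene of the 8 was called under any alternative, and adjusted p-values reached down to 0.122 for Pdk4 (to 0.835 at most) and 0.117 for Angptl4 (to 0.667), both above 0 in all 18 alternatives. Plin2 turned to -0.036 with array weights. Ehhadh, with marked spots kept, turned to 0.030 with normexp on the median signal, an alternative chosen after seeing the data, and to 0.079 with array weights. Leaving out single arrays moved Ehhadh between -0.19 and 0.22 and Cpt1a between -0.077 and 0.064. The median of the genes tested was 0.82 with array weights and 0.24 to 1.02 with single arrays left out, the latter without wild-type replicate 3. The count of 58 called features became 100 with normexp, 35 with no filter on dim probes, 33 with all 6 arrays required, 106 with a trended robust variance and 98 with array weights. It was 8 (without knockout replicate 2) to 91 (without knockout replicate 3) with single arrays left out, and 18, 26, 35 and 17 without wild-type replicates 1, 2 and 3 and knockout replicate 1. List medians moved to 0.037 for the angiopoietin-like family with no filter, to -0.15 for pyruvate dehydrogenase control with marked spots kept, and, with single arrays left out, to between -0.032 and 0.24 for lipid droplets and -0.0018 and 0.16 for ketogenesis. The cause was not tested. The labels give the groups no shared replicate numbers, so no pairing of the mice is known. The slide column block set columns 1 and 2 apart and joined column 3 (knockout replicate 3) with column 4 (wild-type replicate 3). Each of its blocks thus held a wild-type and a knockout array, as in a paired fit. The animal number and slide column blocks called none of the 8. Normexp on the mean signal was not run, and Plin2 had a value without marked spots only when replicate 2 of either group was the one left out.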
